A study of Mus musculus with 6 samples.

Results

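TREM receptors and their adaptor were followed across sorted myeloid cells of a mouse tumour. The set holds 6 of the 35275 genes in the deposited files: the receptor genes Trem1, Trem2, Trem3, Treml2 and Treml4, and Tyrobp, the gene of the adaptor DAP12. They were taken by gene symbol, and all 6 passed the filter on low counts that left 13883 genes to test. The cells came from subcutaneous CT26 tumours, a mouse colon cancer model, grown to 1800 cubic millimetres in BALB/C mice with no other treatment or genotype named, and the age of the mice is not given in the sources used here. Cells were sorted by Ly6G, a surface protein of neutrophils, and by binding of T1, an aptamer (a folded nucleic acid selected to bind a target). Ly6G(high) T1-non-binding cells and Ly6G(high) T1-binding cells are labelled as polymorphonuclear (PMN) subsets, and Ly6G(low) T1-binding cells as a myeloid subset, with 2 libraries each; they are called Ly6G-high non-binders, Ly6G-high binders and Ly6G-low cells below. All 3 populations were sorted from the tumours of the same 2 mice, so each comparison rests on 2 animals, and the other stains of the sort are not stated.

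TREM receptors are single immunoglobulin-domain proteins of myeloid cells. TREM-1, TREM-2 and mouse TREM-3 have no signalling tail of their own and pair with DAP12, whose ITAM motif recruits the kinase SYK. TREM-1 amplifies Toll-like receptor responses in neutrophils and monocytes, whereas TREM-2 binds lipids and apolipoproteins on macrophages and microglia and dampens many inflammatory responses. TREM-like transcript 2, the product of Treml2, is found on B cells, neutrophils and macrophages, and the product of Treml4 on dendritic cells and macrophages, where it binds dead cells.

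The 5 receptor genes lie on the plus strand of chromosome 17 (mm10, GENCODE M21), within 121.4 kb. Their order is Trem1 (chr17:48232768-48246924), Trem3 (chr17:48247777-48258841), Treml4 (chr17:48264295-48275360), Treml2 (chr17:48299498-48312533) and Trem2 (chr17:48346401-48354147). Tyrobp lies on the plus strand of chromosome 7 (chr7:30413760-30417585), and its end is 126 bases from the end of Hcst, the gene of the related adaptor DAP10, on the opposite strand. Whether the counting used strand is not stated, but no annotated exons of Tyrobp and Hcst overlap. The transcripts of the members in GENCODE M21 shared no stretch of 50 bases with those of the other genes of the cluster.

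The promoters of Trem1 and Trem2, whose ratio is compared below, are shown as the 250 bases before the start of each gene (RefSeq, GRCm38.p6, plus strand, 5' to 3'). Capitals mark GAGGAA or its reverse complement TTCCTC, the core of the sites bound by PU.1, a transcription factor of myeloid cells encoded by Spi1. The Trem1 sequence is chr17:48232489-48232738 and the Trem2 sequence is chr17:48346151-48346400.
Trem1: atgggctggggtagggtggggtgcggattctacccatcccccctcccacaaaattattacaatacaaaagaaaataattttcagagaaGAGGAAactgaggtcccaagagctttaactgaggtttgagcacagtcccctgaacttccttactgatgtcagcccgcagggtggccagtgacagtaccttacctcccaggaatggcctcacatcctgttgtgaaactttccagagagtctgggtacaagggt
Trem2: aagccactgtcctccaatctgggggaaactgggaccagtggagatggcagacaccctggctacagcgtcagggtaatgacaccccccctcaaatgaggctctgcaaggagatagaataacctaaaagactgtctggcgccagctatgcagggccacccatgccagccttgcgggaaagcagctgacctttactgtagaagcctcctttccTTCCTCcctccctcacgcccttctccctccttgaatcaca
Each holds 1 match, and the Treml4 promoter, the only other one of the 6 with an entry in the table, holds 2. The same letters occur on either strand in 23.3% of 32851 promoters of this length. TTNNGNAA, a spelling of the site bound by C/EBP factors, has 1 match each in Trem1 and Treml4 and 0 in Trem2, against 36.8% of promoters with a match.

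The libraries held 23595976 to 28045025 counts each. Ly6g itself stood at 31.5 ± 1.80 CPM (counts per 1000000, TMM-scaled; mean ± SD, n = 2) in Ly6G-high non-binders, 9.72 ± 0.470 CPM in Ly6G-high binders and 0.106 ± 0.108 CPM in Ly6G-low cells. S100a8, a calcium-binding protein of neutrophils, stood at 9680 ± 2807, 3276 ± 666 and 45.0 ± 35.9 CPM in the same order, Csf1r, the macrophage growth factor receptor, at 868 ± 173, 1549 ± 64.0 and 329 ± 152 CPM, and Itgam, the gene of CD11b, at 1621 ± 716.4, 1821 ± 528 and 283.7 ± 101.4 CPM. The Ly6G-low libraries stood apart from the others in genes that all leukocytes use. In FPKM, the deposited level per gene length and library total, 10 pan-leukocyte markers summed to 1056 and 1389 in the Ly6G-low libraries against 4742 to 6147 in the 4 Ly6G-high libraries. Fibroblast and endothelial markers (8 genes) summed to 466 and 379 FPKM there against 107 to 197 FPKM, and tumour and epithelial markers (7 genes) to 105 and 92.0 FPKM against 15.2 to 40.9 FPKM. By gene the fibroblast and endothelial list was split. In the tests below 2 of its genes were called higher and 2 lower in Ly6G-low cells against each Ly6G-high population. Of the tumour and epithelial markers 4 were tested, with 1 called higher and 0 lower. Of all tested genes 18.8% were called higher and 24.3% lower against binders, and 16.1% and 23.8% against non-binders. Cldn4, a tight junction gene of epithelia, had no count in 5 of the 6 libraries, and T, NK and B cell markers (9 genes) summed to 11.5 to 38.6 FPKM in every library.

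Trem1 was among the most abundant transcripts of the Ly6G-high cells and was much lower in Ly6G-low cells. Its level was 1449 and 871 FPKM (mouse 1, mouse 2) in Ly6G-high non-binders, 918 and 462 FPKM in Ly6G-high binders, and 42.5 and 28.9 FPKM in Ly6G-low cells. Among all genes of a library these levels held ranks 50 and 74, 72 and 166, and 2008 and 2793. The Ly6G-high populations overlapped, since binders of mouse 1 were above non-binders of mouse 2, and in all 3 populations mouse 1 was the higher. Both Ly6G-low libraries lay far below all 4 others. On TMM-scaled CPM, 39.6% of all tested genes were lower without overlap in Ly6G-low cells than in Ly6G-high binders. Against non-binders the share was 36.6%. Separation of Ly6G-low libraries in the other members below is to be read beside these shares.

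Trem3, the neighbour of Trem1, encodes another activating receptor that pairs with DAP12 in mice. It showed 128 and 104 FPKM in Ly6G-high non-binders, 75.9 and 51.2 FPKM in Ly6G-high binders, and 4.05 and 3.31 FPKM in Ly6G-low cells. The 3 populations did not overlap, and their order was that of the Trem1 means.

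Treml4 and Treml2 were low in every population. Treml4 was at 8.89 and 7.30 FPKM in Ly6G-high non-binders, 8.88 and 7.66 FPKM in Ly6G-high binders, and 0.729 and 1.29 FPKM in Ly6G-low cells. For Treml2 the levels were 2.57 and 2.40 FPKM, 2.495 and 2.57 FPKM, and 0.216 and 0.684 FPKM in the same order. Both genes separated Ly6G-low from Ly6G-high libraries, as did a large share of all genes, and neither separated the Ly6G-high populations.

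For Trem2 alone among the 6, both libraries of Ly6G-high binders were above all 4 others. It was at 6.96 and 9.73 FPKM in Ly6G-high non-binders, 18.2 and 23.1 FPKM in Ly6G-high binders, and 5.46 and 8.96 FPKM in Ly6G-low cells. On this scale non-binders and Ly6G-low cells overlapped. Unlike Trem1, it was higher in mouse 2 in each population.

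Tyrobp was the most abundant of the 6 in every library. Its level was 1920 and 1807 FPKM in Ly6G-high non-binders, 1648 and 1654 FPKM in Ly6G-high binders, and 298 and 431 FPKM in Ly6G-low cells. It ranked 28 to 35 among all genes in the Ly6G-high libraries and 274 and 168 in the Ly6G-low ones. In Ly6G-high non-binders the mean level fell from Tyrobp (1863 ± 79.8 FPKM, SD, n = 2) through Trem1 (1160 ± 409), Trem3 (116 ± 16.7), Trem2 (8.34 ± 1.96) and Treml4 (8.09 ± 1.12) to Treml2 (2.49 ± 0.115), and Trem2 and Treml4 did not differ beyond their spread. In Ly6G-high binders Trem2 (20.6 ± 3.43) and Treml4 (8.27 ± 0.866) no longer overlapped, and the order was otherwise the same. In Ly6G-low cells the order was Tyrobp (364 ± 93.9), Trem1 (35.7 ± 9.62), Trem2 (7.21 ± 2.48), Trem3 (3.68 ± 0.527), Treml4 (1.01 ± 0.394) and Treml2 (0.450 ± 0.331), and no neighbours in this order overlapped.

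**Figure D1:**
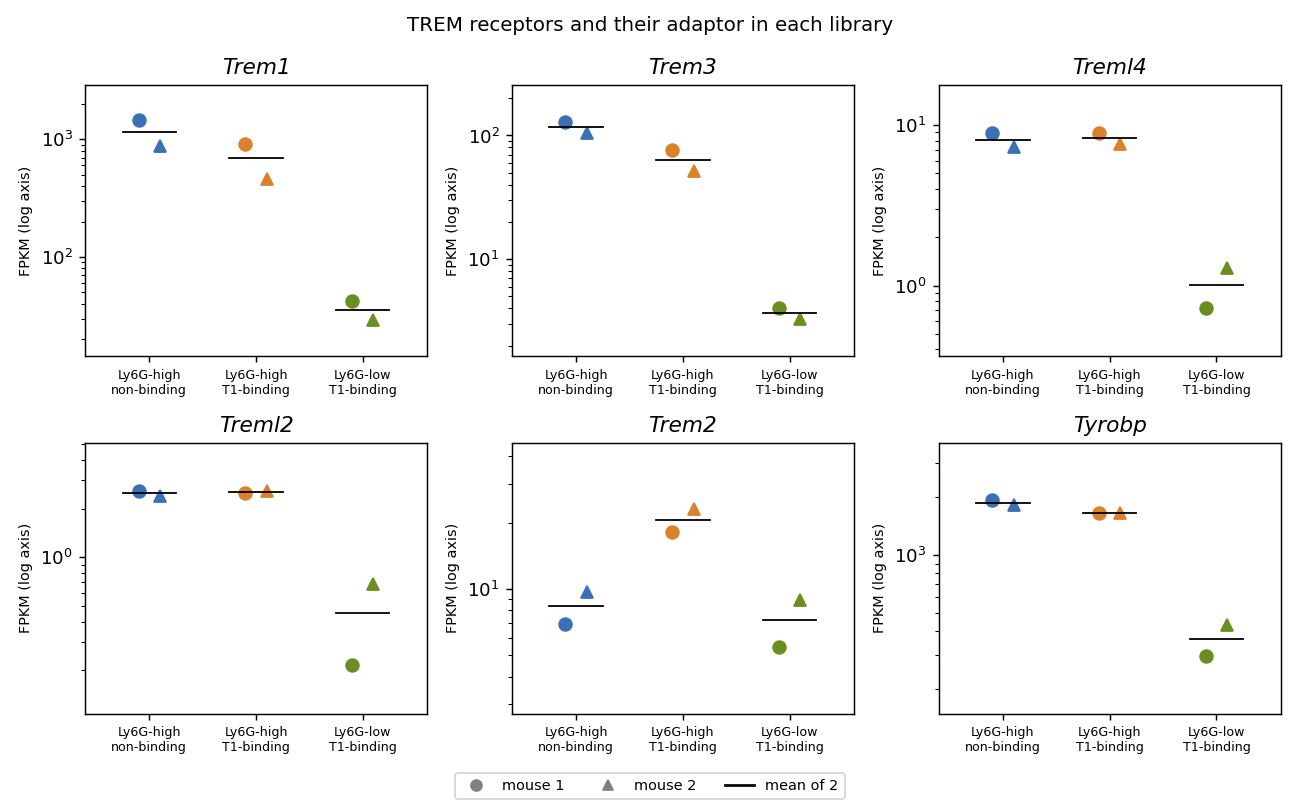
Level of each gene in the 6 libraries, as deposited FPKM on a log axis; circles are mouse 1, triangles mouse 2, and bars the mean of 2. Trem1, Trem3, Treml4, Treml2 and Tyrobp are lowest in Ly6G-low cells, and Trem2 is highest in Ly6G-high binders (18.2 and 23.1 FPKM).

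Within the Ly6G-high gate, binders were set against non-binders to ask what goes with T1 binding. Trem2 was 2.08-fold higher in binders, while Trem1 was 2.07-fold and Trem3 2.22-fold lower, and none of these differences passed the test of edgeR (quasi-likelihood, Benjamini-Hochberg adjusted). The count was 0 of 6 members, against 0% of all 13883 tested genes. The log2 fold change of Trem2 was 1.05 ± 0.25 (SE; adjusted p = 0.385), with 106 ± 5.89 CPM against 50.9 ± 0.190 CPM. For Trem3 it was -1.15 ± 0.34 (adjusted p = 0.385) and for Trem1 -1.05 ± 0.56 (adjusted p = 0.489), with Trem1 at -0.31 without the non-binder library of mouse 1 and -1.78 without the binder library of mouse 1. Within the mice the values lay close together: 0.99 and 1.11 for Trem2, -1.15 and -1.16 for Trem3, and -1.05 and -1.04 for Trem1. Tyrobp gave -0.46 ± 0.33, Treml2 -0.26 ± 0.43 and Treml4 -0.26 ± 0.34, with adjusted p between 0.589 and 0.844 (edgeR).

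At an unadjusted p under 0.05, 2 members differed, Trem2 and Trem3, against 11.7% of all tested genes. On TMM-scaled CPM the populations did not overlap for Trem2 (higher; 20.1% of all genes) nor for Trem3 and Tyrobp (lower; 19.1% of all genes), and 39.2% of all genes had no overlap in either direction. With the mouse as a block on these 4 libraries alone, 4 members were called: Trem2 was higher (1.10, adjusted p = 7.7e-11), and Trem1 (-0.997, adjusted p = 4.0e-10), Trem3 (-1.10, adjusted p = 3.5e-11) and Tyrobp (-0.39, adjusted p = 0.0021) were lower in edgeR. This fit has 1 residual degree of freedom and called 28.2% of all genes (13.6% higher, 14.6% lower). With the block on all 6 libraries no member was called (Trem3 adjusted p = 0.0762, Trem2 0.102, Trem1 0.177). DESeq2 called Trem2 alone of the 6 (1.03, adjusted p = 0.0286) among 2.31% of all genes (0.787% higher, 1.53% lower), and edgeR without a filter on low counts also called Trem2 alone (1.08, adjusted p = 0.0416) among 0.334% (0.141% higher, 0.193% lower).

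Marker genes of neutrophils and of other cell types moved with these differences. All 12 neutrophil markers were lower in Ly6G-high binders than in non-binders (median log2 fold change -1.56) and 11 of 12 macrophage and monocyte markers were higher (median 0.93), none of them called. Summed neutrophil marker FPKM was 47721 and 45100 in non-binders and 20800 and 17674 in binders, and summed macrophage and monocyte marker FPKM 8828 and 8488 against 9019 and 9543. No marker of either list was at 0 in these 4 libraries. Per 1000 FPKM of the neutrophil markers, Trem1 stood at 30.4 and 19.3 in non-binders and at 44.1 and 26.2 in binders. Per 1000 FPKM of the macrophage and monocyte markers, Trem2 stood at 0.788 and 1.15 against 2.02 and 2.42. This sum is weighted to the most abundant markers and rose less than the list's median. Against that median (0.93), the log2 fold change of Trem2 (1.05) was about the same, so the 2 readings differ. Platelet and megakaryocyte markers (6 genes) summed to 584 and 397 FPKM in non-binders and to 1806 and 1059 FPKM in binders. Only 3 of these 6 passed the filter on low counts, with 2 higher and 1 lower in binders and none called. The part of other cell types in the differences was not tested, and in bulk RNA more cells of a type and more RNA per cell cannot be told apart.

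Among the cells that bind T1, Ly6G-low cells were set against Ly6G-high binders in the second comparison. All 6 members were called lower in Ly6G-low cells at the adjusted p threshold of 0.05, where 24.3% of all tested genes were called lower and 18.8% higher. Trem1 was 29.8-fold lower (log2 fold change -4.90 ± 0.66, adjusted p = 0.00343) and Trem3 26.3-fold lower (-4.72 ± 0.41, adjusted p = 0.00249) in edgeR. Treml4 fell 12.3-fold (-3.62 ± 0.40), Treml2 8.37-fold (-3.06 ± 0.49) and Tyrobp 6.81-fold (-2.77 ± 0.35), with edgeR adjusted p from 0.00316 to 0.00477. Treml2 moved to -4.21 without the Ly6G-low library of mouse 2 and to -2.47 without that of mouse 1, and Trem1 to -4.17 without the binder library of mouse 1, all still called. Trem2 had the smallest change of the 6, 4.26-fold lower (-2.09 ± 0.25, adjusted p = 0.00319). The members' median was -3.34, against 0.03 over all tested genes.

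The third comparison set the same Ly6G-low libraries against the non-binder libraries of the first, so it shares samples with both. All 6 members were again called lower, beside 23.8% of all tested genes called lower and 16.1% called higher. Trem1 fell 61.7-fold (-5.95 ± 0.69), Trem3 58.5-fold (-5.87 ± 0.43), Treml4 14.7-fold (-3.88 ± 0.40), Treml2 9.99-fold (-3.32 ± 0.49) and Tyrobp 9.37-fold (-3.23 ± 0.35), with edgeR adjusted p from 0.000796 to 0.00399. Treml2 moved to -4.41 and -2.72 without the Ly6G-low library of mouse 2 and of mouse 1, and Trem1 to -5.21 without the non-binder library of mouse 1, all still called. Trem2 fell 2.05-fold (-1.04 ± 0.25, adjusted p = 0.0193). Its call was lost without the Ly6G-low library of mouse 1 (-0.72, adjusted p = 0.109), without the non-binder library of mouse 1 (-1.04, adjusted p = 0.0544) and with library totals in place of TMM (-0.21, adjusted p = 0.558). The members' median was -3.60, against 0.09 over all tested genes. With library totals all 6 members kept their calls in the second comparison, Trem2 at -1.52, and those other than Trem2 in the third. This setting called 16.1% of all genes lower and 37.5% higher in the second comparison, and 13.6% lower and 52.3% higher in the third. The falls were smaller, with Trem1 at -4.27 in the second comparison and -5.02 in the third, and Tyrobp at -2.18 and -2.36. The median of all genes moved to 0.61 and 0.91.

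**Figure D2:**
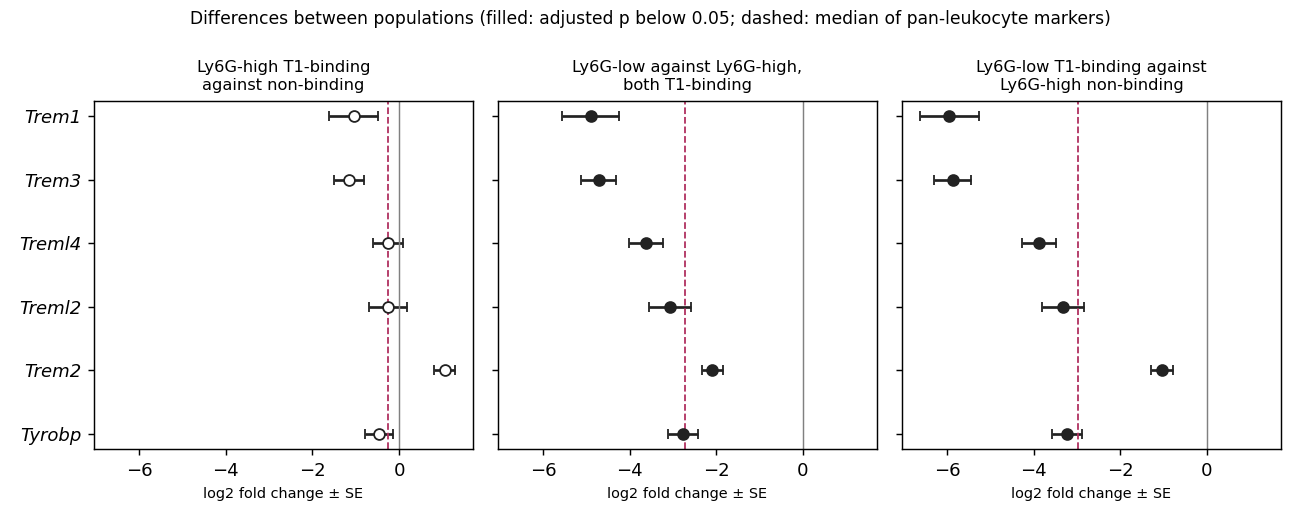
Log2 fold change ± SE of each gene in the 3 comparisons (TMM scale); filled points passed the adjusted p threshold of 0.05 and the dashed line is the median of 10 pan-leukocyte markers. No point is filled in the first comparison and all 6 lie below 0 in both others, where the leukocyte median is -2.73 and -2.98.

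Pan-leukocyte markers fell together with the members: all 10 were called lower in both comparisons with Ly6G-low cells, with medians of -2.73 and -2.98 on the log2 scale. Ptprc, the gene of CD45, gave -3.21 and -3.78. Neutrophil markers fell further (12 of 12 called lower, medians -6.00 and -7.83), and Camp had no count in the Ly6G-low library of mouse 2. Of 12 macrophage and monocyte markers all were called lower in the second comparison (median -2.14) and 6 in the third (median -1.22), and their summed FPKM in Ly6G-low cells was 1505 and 2547. Set against the summed FPKM of the pan-leukocyte markers, Tyrobp differed little between populations. It stood at 312 and 370 FPKM per 1000 marker FPKM in Ly6G-high non-binders, 304 and 349 in Ly6G-high binders and 282 and 310 in Ly6G-low cells, and the ranges of neighbouring populations overlapped. Trem1 on this scale was 236 and 178, 169 and 97.5, and 40.3 and 20.8 in the same order, with no overlap. Trem2 was 1.13 and 1.99, 3.36 and 4.86, and 5.17 and 6.45, so that its order was the reverse and again without overlap.

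Scaling each library to these markers, a choice made after the values were seen, moved the median of all tested genes to 2.90 in the second and 3.35 in the third comparison. Under it Trem1 (-1.87) and Trem3 (-1.76) kept their calls in the second comparison, and Treml2 (-0.29), Treml4 (-0.77), Tyrobp (0.09) and Trem2 (0.72) did not pass. In the third comparison Trem1 (-2.46) and Trem3 (-2.48) were called lower and Trem2 (2.17, adjusted p = 0.000554 in edgeR) higher. This scaling called 83.6% of all genes higher and 1.54% lower in the second comparison, and 88.5% higher and 2.39% lower in the third. It moves all genes by about the same amount, so the sign of a member under it follows from the size of its fall on the TMM scale. All 6 members lay below the median of all genes under either scaling, Trem2 and Tyrobp included, although the sign of these 2 turned to positive. The part of other cell types in the Ly6G-low libraries was not tested.

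A ratio of FPKM within a library does not depend on the scaling between libraries. The ratio of Trem1 to Trem2 was 208 and 89.5 (mouse 1, mouse 2) in Ly6G-high non-binders, 50.4 and 20.1 in Ly6G-high binders and 7.79 and 3.23 in Ly6G-low cells. The populations did not overlap, and the mouse 1 library was the higher in each. The ratio was 4.29-fold lower in Ly6G-high binders than in non-binders (4.13-fold and 4.46-fold within the mice) and 6.34-fold lower in Ly6G-low cells than in Ly6G-high binders (6.47-fold and 6.21-fold). From Ly6G-high non-binders to Ly6G-low cells it was 27.2-fold lower. Each of these gave p = 0.333 in a two-sided exact permutation test, the smallest that 2 against 2 libraries allow.

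Trem1 gave 90.8% and 87.5% of the FPKM of the 5 receptors in Ly6G-high non-binders, 89.7% and 84.6% in Ly6G-high binders, and 80.3% and 67.0% in Ly6G-low cells. Trem2 gave 0.436% and 0.978%, 1.78% and 4.21%, and 10.3% and 20.8%. The Ly6G-high populations overlapped in the share of Trem1 and not in that of Trem2. The share of Trem3 stayed between 7.42% and 10.5% in all 6 libraries. Summed receptor FPKM per Tyrobp FPKM was 0.831 and 0.550 in Ly6G-high non-binders, 0.621 and 0.331 in Ly6G-high binders and 0.178 and 0.1003 in Ly6G-low cells. Within the mice it was 1.34-fold and 1.66-fold lower in Ly6G-high binders than in non-binders, while the populations overlapped (exact permutation p = 0.667), and Ly6G-low cells lay below both (p = 0.333 each, the smallest possible; 3.39-fold and 5.06-fold lower).

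**Figure D3:**
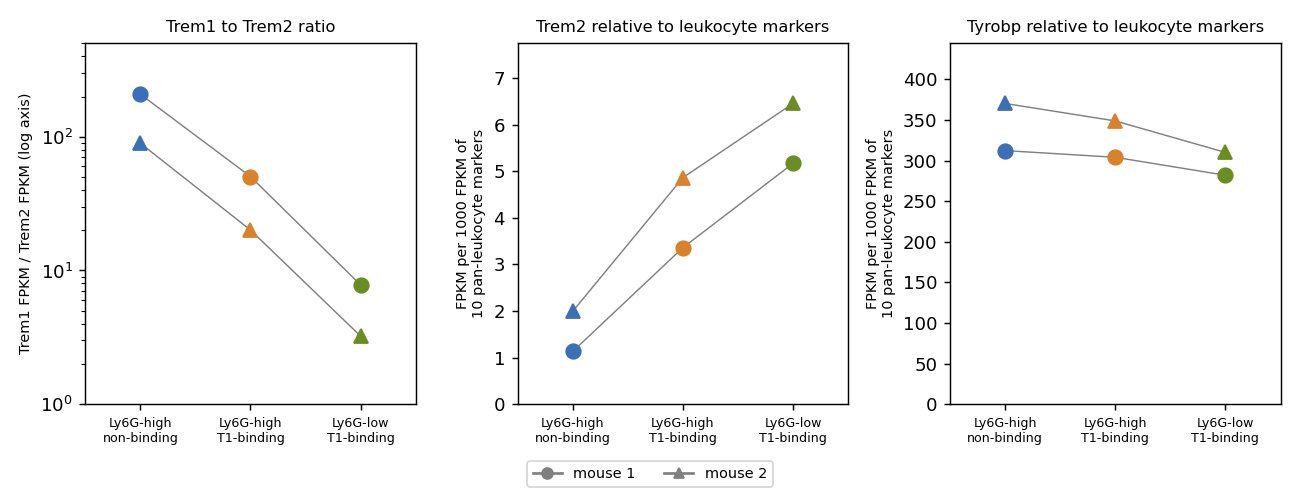
Left, ratio of Trem1 to Trem2 FPKM (log axis); middle and right, Trem2 and Tyrobp FPKM per 1000 FPKM of 10 pan-leukocyte markers; lines join libraries of 1 mouse. The Trem1 to Trem2 ratio falls in both mice from 208 and 89.5 to 7.79 and 3.23, Trem2 per leukocyte marker runs the other way, and Tyrobp stays between 282 and 370.

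Of the other receptor genes of the cluster, 3 could be tested. 9830107B12Rik, listed by RefSeq as Trem5, starts at -107.2 kb from the start of Trem1 and was at 12.9 and 9.39 FPKM in Ly6G-high non-binders, 7.36 and 4.93 FPKM in Ly6G-high binders and 0.291 and 0.440 FPKM in Ly6G-low cells. A530064D06Rik, named here for its position at -83.6 kb from the start of Trem1, was at 132 and 93.0, 86.7 and 49.2, and 5.67 and 4.91 FPKM. B430306N03Rik, listed as Treml6, lies between Treml2 and Trem2 and was at 14.1 and 9.47, 12.3 and 7.85, and 1.52 and 2.12 FPKM. Between Ly6G-high populations their log2 fold changes were -1.15 ± 0.39, -1.02 ± 0.43 and -0.52 ± 0.41, none called and B430306N03Rik with overlapping FPKM, and all 3 fell in Ly6G-low cells against Ly6G-high binders (-4.67, -4.30 and -3.08). Treml1, the gene of TREM-like transcript 1 of platelets, had 5 and 1 counts in Ly6G-high binders and 0 in the other 4 libraries, where a count of 0 allows up to 0.107 to 0.127 CPM of the library total, and it was not tested.

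**Figure D4:**
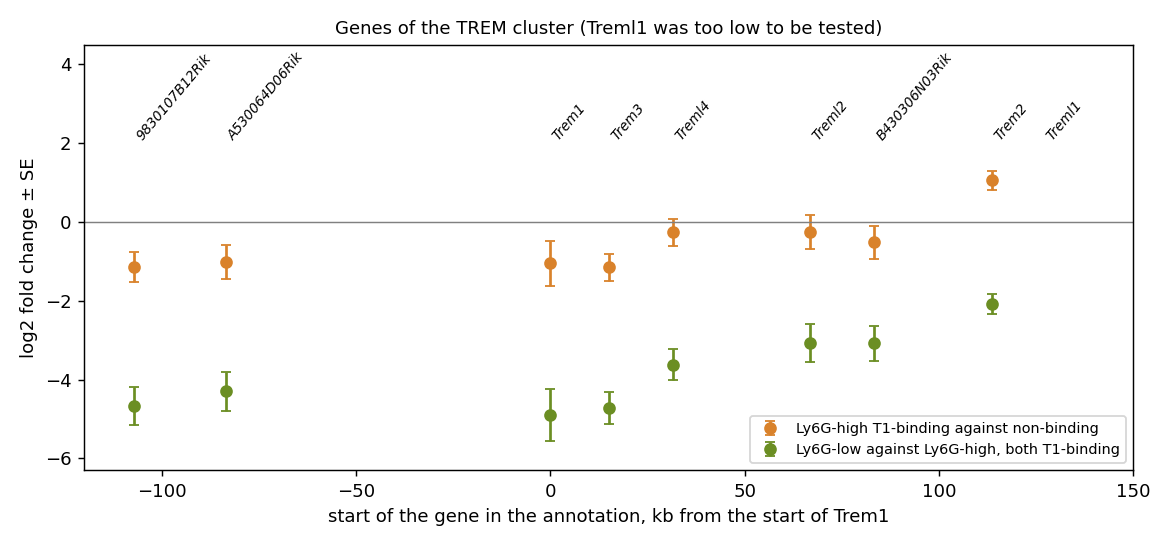
Log2 fold change ± SE of the tested genes of the TREM cluster against the distance of their start from that of Trem1 in kb, for Ly6G-high binders against non-binders and for Ly6G-low cells against Ly6G-high binders. Trem2, at 113.6 kb, is the only gene above 0 in the first comparison (1.05) and has the smallest fall in the second (-2.09).

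Across 6 libraries the members' log2 CPM followed each other to different degrees, as a description of 3 populations in 2 mice. Pearson's r was 0.997 between Trem1 and Trem3 and 0.997 between Treml4 and Tyrobp. Trem2 had 0.718 with Trem1, 0.722 with Trem3 and 0.841 with Treml2, its highest with any of the 5. The tested genes most like Trem1 were Slc7a11, a cystine transporter, Egln3, an oxygen-sensing hydroxylase, and Chst11, a chondroitin sulfotransferase (r from 0.999 to 1.00). Those most like Trem3 were Ankrd33b, Srgn and Mcemp1, those most like Treml2 included Prorsd1 and Slco3a1, and those most like Treml4 Cytip, Gmip and Pilrb1. For Trem2 they were Tmem106a, Tbxas1, the gene of thromboxane synthase, and Rnf157 (r from 0.998 to 0.999). For Tyrobp they were Spi1, the gene of PU.1, Snx20 and Sirpb1c, a DAP12-paired receptor. All these values rest on the same few libraries, and no test was made of them.

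The wider pathway was read from 9 lists with 88 tested genes. Between the Ly6G-high populations none was called by edgeR or voom. An unadjusted p under 0.05 was found for 13 (14.8%, near the 11.7% of all genes), 7 higher and 6 lower. DESeq2 called Pglyrp1, Lat2 and Apoe, 3.41% of all 88. Its 2.31% is a share of only the 8769 genes with an adjusted p, so the 2 shares have unlike denominators. Without a filter edgeR called Pglyrp1 alone. With the mouse as a block on these 4 libraries alone 45 were called, 19 higher and 26 lower (51.1%, beside 28.2% of all genes). In Ly6G-low cells against Ly6G-high binders 71 of the 88 were called lower and 4 higher (75 called; median -2.29), beside 24.3% and 18.8% of all genes. Against non-binders 62 were called lower and 2 higher (64 called; median -2.03), beside 23.8% and 16.1% of all genes. Without the Ly6G-low library of mouse 1 these counts were 48 and 41, all lower, beside 10.1% and 9.74% of all genes lower, so no pathway gene was called higher there. Without the binder library of mouse 1, which leaves 1 library in that group, the calls against binders were again all lower. By sign alone, 78 of the 88 were lower and 10 higher in Ly6G-low cells against each Ly6G-high population. Of all 13883 tested genes, 6756 had a negative log2 fold change against binders and 6494 against non-binders. The signs by list below are to be read beside these. In the counts by list below, fell and rose mean called lower and called higher, to be read beside the shares of all genes given here. The medians of these lists are to be read beside the pan-leukocyte medians of -2.73 and -2.98.

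Ligands and co-receptors went both ways. Pglyrp1, a peptidoglycan-binding protein of neutrophil granules that binds TREM-1, was at 43.7 ± 4.404 CPM in Ly6G-high binders and 135 ± 31.5 CPM in non-binders (log2 fold change -1.62 ± 0.22, adjusted p = 0.385), and fell 23.3-fold in Ly6G-low cells against Ly6G-high binders. Cd177, a neutrophil surface protein, fell 70.4-fold there. Apoe, the gene of a lipoprotein that binds TREM-2, was at 3717 ± 142 CPM in Ly6G-high binders and 1688 ± 79.0 CPM in non-binders (1.14 ± 0.40, adjusted p = 0.392) and fell 4.38-fold in Ly6G-low cells against Ly6G-high binders. Of 11 genes on this list 6 fell and 3 rose in that comparison (list median -2.055, and -0.992 against non-binders). The 3 were Clu, an apolipoprotein, Sema6d, a semaphorin, and Plxna1, its plexin receptor. Against non-binders Clu was not called (0.66, adjusted p = 0.0535, edgeR), while Sema6d (0.95) and Plxna1 (0.72) were. Against binders Clu rose by 0.86, Sema6d by 0.69 and Plxna1 by 0.54 on the log2 scale (edgeR adjusted p from 0.0229 to 0.0454). All 3 of these calls were lost without the Ly6G-low library of mouse 1 (adjusted p from 0.129 to 0.155), without that of mouse 2 (0.0512 to 0.265) and without the binder library of mouse 1 (0.141 to 0.248), and without the binder library of mouse 2 only that of Clu remained (0.0299).

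Receptors that share the adaptor fell with it. Of the other TREM-cluster and related receptors all 4 that were tested fell, including Nfam1, an ITAM receptor (-2.94), and Ncr1, an NK cell receptor (-2.19). Their median was -3.01 in Ly6G-low cells against Ly6G-high binders and -3.46 against non-binders. Of 14 other DAP12-paired receptors 13 fell in Ly6G-low cells against Ly6G-high binders, with Sirpb1c and Sirpb1a each 11.4-fold lower and Clec5a, a lectin of monocytes and neutrophils, 6.66-fold lower. The Sirpb1 genes are close copies, so their reads may be split unevenly. Against non-binders 9 of the 14 were called lower, and all 14 had a negative log2 fold change. The median of the 14 was -2.79 against binders and -2.21 against non-binders. Among other adaptors Hcst fell 8.16-fold and Fcer1g, the Fc receptor gamma chain, 7.03-fold, 2 of the 3 on that list. The list's median was -2.81 against binders and -3.10 against non-binders.

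Of 19 signalling genes below the adaptor, 19 were called lower in the second comparison. In the third 17 were called lower, and all 19 had a negative log2 fold change. The median of these 19 was -2.36 in Ly6G-low cells against Ly6G-high binders and -2.09 against non-binders. These were smaller falls than the pan-leukocyte medians of -2.73 and -2.98. Syk was 10.8-fold lower and Fgr, a Src-family kinase of myeloid cells, 10.3-fold lower in Ly6G-low cells than in Ly6G-high binders. Plcg2, a phospholipase downstream of TREM-2, was 5.43-fold lower, and Blnk, a linker protein of B cells and macrophages, had the smallest fall of the list (-0.72). Among 7 negative regulators 6 fell, including Inpp5d, the gene of the phosphatase SHIP1 (-2.85), and Dok3 (-2.77). All 7 regulators had a median of -2.25 against binders and -2.12 against non-binders, again smaller falls than the pan-leukocyte medians. Of 7 genes for shedding of the receptors 5 fell, with Adam17, a sheddase, at -1.78 and Psen2, a gamma-secretase subunit, at -1.78. The shedding list had a median of -1.05 against binders and -0.45 against non-binders, also smaller falls than the pan-leukocyte medians.

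Of 11 inflammatory genes amplified by TREM-1 signalling, 10 fell in Ly6G-low cells against Ly6G-high binders (median -3.83), with the chemokine genes Ccl3 25.3-fold and Ccl4 18.9-fold lower, and Cxcl1 (-1.31) the least of those called. Between the Ly6G-high populations their median was -0.69, with none called. Of 12 lipid-associated macrophage genes linked to TREM-2, 6 fell and 1 rose in Ly6G-low cells against Ly6G-high binders (median -1.16). Itgax, the gene of CD11c, was at -2.80 and Fabp5, a fatty acid binding protein, at -2.56, while Gpnmb, a glycoprotein of lipid-laden macrophages, rose by 0.95 (adjusted p = 0.0218, edgeR). Its call was lost without the Ly6G-low library of mouse 1 (0.58, adjusted p = 0.146) and without either binder library (adjusted p = 0.0669 and 0.102). In Ly6G-low cells against non-binders Gpnmb was not called (0.50, adjusted p = 0.138, edgeR). The median of this list between the Ly6G-high populations was -0.18, with none called.

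**Figure D5:**
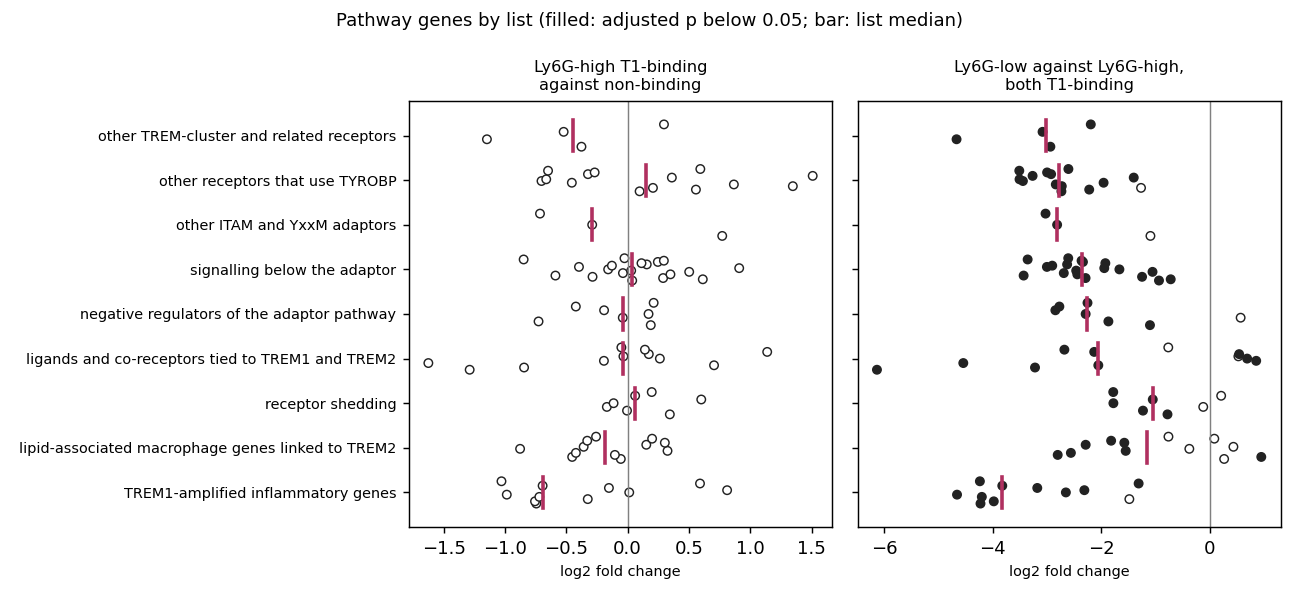
Log2 fold change of each tested gene of 9 pathway lists, 1 row per list, in Ly6G-high binders against non-binders and in Ly6G-low cells against Ly6G-high binders; filled points passed the adjusted p threshold of 0.05. No point is filled in the first panel, and 75 of 88 are filled in the second, 71 of them below 0.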

How the data were processed

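RNA was measured in 6 libraries, 2 for each of 3 populations, with the population taken from the sample title and the mouse from the source label, so that libraries were paired by animal. The authors deposited whole, unnormalized read counts per gene and FPKM values (each count over the length of the gene and the total of its library) for 35275 genes. TopHat, STAR 2.5, HTSeq 0.6.1 and build mm10 are named, per the submitters' processing notes, with no role for each, and the annotation, filters and strandedness are not given in the sources used here. Total counts ran from 23595976 to 28045025 per library, and limits from counts cover counting error only.

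From the counts, filterByExpr kept 13883 genes, TMM scaled the libraries, and edgeR 4.0.16 (quasi-likelihood, robust fit, under R 4.3.3) was fitted to the 6 libraries with population as the only term; 3 residual degrees of freedom were left. P-values were adjusted by Benjamini-Hochberg over all tested genes, with a threshold of 0.05. Levels were compared between genes on the deposited FPKM, and differences between populations on the TMM scale. Ratios of FPKM within a library were compared by a two-sided exact permutation test of their log2 values. Alternatives were a mouse block, the compared groups alone, RLE factors, library totals, DESeq2 1.42.0, voom of limma 3.58.1, other filters and each library left out. Deviations from the population means of same-mouse libraries correlated at 0.51 between both Ly6G-high populations, at -0.04 between Ly6G-low and Ly6G-high T1-non-binding cells and at -0.01 between Ly6G-low and Ly6G-high T1-binding cells, over 13883 genes.

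The members, the 9 pathway lists, the 7 marker lists and the tests were chosen with earlier results of these data known. Scaling to the 10 pan-leukocyte markers was added after the values were seen. Named genes were the 6 members, the called genes with the most extreme log2 fold changes in each list (2 at each end), a short set named whatever its result (Syk, Plcg2, Hcst, Fcer1g, Pglyrp1, Apoe, Clec5a, Treml1 and population checks) and the 3 genes most correlated with each member, of which 1 is not reported here. Lat2, Camp, Cldn4 and A530064D06Rik stand outside this rule and were named after their values were seen.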

Additional observations from a re-analysis of the deposited data

How the results depend on the processing

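With the mouse as a replicate block on the compared groups alone, 4 members and 45 pathway genes were called between the Ly6G-high populations, against 0 and 0 without it; the same block on all 6 libraries called 0 members, and neither block changed the call of a member in the comparisons with Ly6G-low cells. Between the Ly6G-high populations DESeq2 called 1 member and 3 pathway genes, and edgeR without a filter 1 and 1. Over 96 alternative values for the members in each comparison, 83, 92 and 89 kept their direction and their side of the threshold. Between the Ly6G-high populations Treml2 turned to 0.0265 with library totals, 0.20 with scaling to pan-leukocyte markers and 0.0597 without the non-binder library of mouse 1 (lowest without the non-binder library of mouse 2, -0.523). Treml4 turned to 0.0319, 0.20 and 0.18 under these, and to 0.0119 without the binder library of mouse 2 (lowest -0.597). Scaling to pan-leukocyte markers left 2 members and 39 pathway genes (31 higher, 8 lower) called in Ly6G-low cells against Ly6G-high binders (all genes: 83.6% higher, 1.54% lower), with Trem2 at 0.72 and Tyrobp at 0.0868. Against non-binders it called 3 members, with Trem2 at 2.17 and Tyrobp at 0.0813, and 47 pathway genes higher and 9 lower (all genes: 88.5% and 2.39%). Leaving out 1 library at a time gave 0 members called in the first comparison, 6 in the second and 5 to 6 in the third, and 48 to 76 pathway genes in the second and 41 to 66 in the third comparison. Trem1 between the Ly6G-high populations ran from -1.78 without the Ly6G-high binder library of mouse 1 to -0.31 without the non-binder library of mouse 1. The log2 difference of the Trem1 to Trem2 ratio ran from -2.77 to -1.44, -3.33 to -1.9998 and -5.40 to -4.13. Library totals moved the median of all genes to 0.20, 0.61 and 0.91 and the split of all calls from 2604 higher and 3367 lower to 5208 and 2235 in the second comparison, and from 2230 and 3298 to 7262 and 1883 in the third. Apart from the scaling itself, the cause of these changes was not tested. With 2 libraries a group, the permutation tests cannot go below 0.333.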
